A study of Drosophila melanogaster with 26 samples.

Results

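Cytochrome P450 genes encode heme enzymes that split molecular oxygen and insert 1 of its atoms into a substrate, so their reaction consumes the molecule that H-treatment withholds. The members described here are the genes whose symbol begins with Cyp and a digit and that have a probe set of their own on the array. For each gene the probe set with the highest mean log2 intensity was taken. The symbol rule matched 83 genes, of which *Cyp1* and *Cyp40* encode cyclophilins, a different protein family, and were left out. The 81 P450 genes that remained are a small share of the 11982 genes with their own probe set. They fall into the families Cyp4 (22 genes), Cyp6 (23), Cyp9 (5), Cyp12 (6), Cyp28 (4) and a mixed remainder of 21 genes. All 81 symbols were found in the RefSeq gene table of the fly. A pair of probe sets was annotated to several genes (*Cyp6v1* with *shn*, and *Cyp12d1-d* with *Cyp12d1-p*) and was not used, so *Cyp12d1-p* has no value.

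Insect P450s are grouped into clans. The CYP3 clan (here Cyp6, Cyp9, Cyp28 and some of the remainder) and the CYP4 clan hold many enzymes of the gut, fat body and Malpighian tubules that oxidize plant toxins, drugs and insecticides, and a number of them are known to be induced by such compounds. The mitochondrial clan (here Cyp12 with *Cyp49a1* and *Cyp301a1*) receives electrons from ferredoxin, whereas microsomal P450s receive them from *Cpr*, the NADPH-dependent P450 reductase, with cytochrome b5 as a helper. Some members have dedicated roles: *Cyp18a1* inactivates ecdysteroids, and *Cyp4g1* makes the hydrocarbons of the cuticle in oenocytes. The ecdysone-producing P450s carry names of their own (*phm*, *dib*, *sad*, *shd*, *spo* and *spok*), are not members by the rule, and are treated as a separate list.

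Wandering L3 larvae with a partially cleared gut, 10 to 4 h from pupariation, were H-treated (4% oxygen for 6 h at 25°C) or held in normoxia as long, and RNA of whole larvae, at least 10 per replicate, was hybridized to 1 array. The 8 groups are 4 genotypes at both oxygen levels. The *w1118* hypoxic group has 5 arrays and every other group 3, so that there are 26. The *w1118* larvae are the controls and came from *w1118* parents. The *sima* mutants are homozygous for *Sima07607*, a P-element insertion in the gene for dHIFα, the oxygen-regulated subunit of the fly hypoxia-inducible factor. The *dERR* mutants are *dERR1/dERR2*, which combines a pair of mutant alleles of the estrogen-related receptor, a nuclear receptor that controls genes of sugar metabolism in larvae. The *dERR,sima* double mutants are *Sima07607,dERR1/Sima07607,dERR2*. All mutants were sorted from crosses over a GFP-marked TM3 balancer chromosome, so the *w1118* controls are not their siblings, and differences of background between the stocks cannot be told apart from those of the mutated genes.

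Levels are log2 of the authors' RMA intensities. A change is a difference of group means on that log2 scale and is given ± its standard error, from 1 limma model of the 26 arrays. A gene passed the test at an adjusted p under 0.01 (Benjamini-Hochberg over 18769 probe sets) and a change of at least 1.5-fold. The *sima* transcript had levels of 7.62 to 8.36 on every array of *w1118* and *dERR* and 4.97 to 6.15 on every array of the *sima* and double mutants, which matches the labels. Salivary glue genes and fat body proteins, both abundant in larvae of this stage, were read strongly on every array (summed intensities of at least 45395 over 5 genes and 42329 over 3). The probe set of *ERR* read between 4.13 and 5.33 on all arrays and was not lower at the threshold in *dERR* in normoxia (-0.33), and since its position relative to the altered part of the gene is not given in the sources used here, it checks nothing. Replicates 2 and 3 of *w1118* in hypoxia differed by 0.162 on average over all probe sets and replicates 4 and 5 by 0.250, against 0.355 to 0.454 for the other pairs of that group, so its 5 arrays may not be equally independent. P450 genes varied more between replicates than probe sets in general. The median SD of a P450 gene ran from 0.182 in *w1118* in normoxia to 0.418 in *w1118* in hypoxia, and the median SD over all probe sets was 0.108 and 0.206 in the same groups. The number of arrays limits the precision of every value below. Because whole larvae were pooled, fewer cells of a type and less RNA per cell cannot be told apart.

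P450 genes that rose outnumbered those that fell in hypoxia in each of the 4 genotypes, and most of the risers were Cyp6, Cyp9 and Cyp28 genes. In *w1118*, 14 of 81 members (17.3%) rose and 0 fell, while 3.58% of all probe sets passed as higher and 1.57% as lower. In *sima* mutants 12 rose and 1 fell, against 1.85% and 1.74% of all probe sets. In *dERR* mutants 3 rose and 0 fell, against 0.197% and 0.192%. In the double mutants 12 rose and 2 fell, against 2.78% and 1.94%. The median change of the 81 genes was 0.15, 0.22, 0.30 and 0.24 in the same order, and that of all probe sets was 0.06, 0.02, 0.01 and 0.00. Thus 18 members passed in hypoxia in at least 1 genotype, and 60 passed in none of the 10 comparisons made (hypoxia in each genotype, each mutant against *w1118* in normoxia, and the 3 interactions). The families also differed in level. In *w1118* in normoxia the median member read 4.12 in the mixed remainder, 5.78 in Cyp4 and 5.86 in Cyp6. It read 6.04 in Cyp28 and 7.22 in Cyp9, and the median level of all probe sets was 5.45. Many genes of the remainder, and some Cyp4 and Cyp6 genes, were dim, where a change of the transcript may not be seen.

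**Figure D1:**
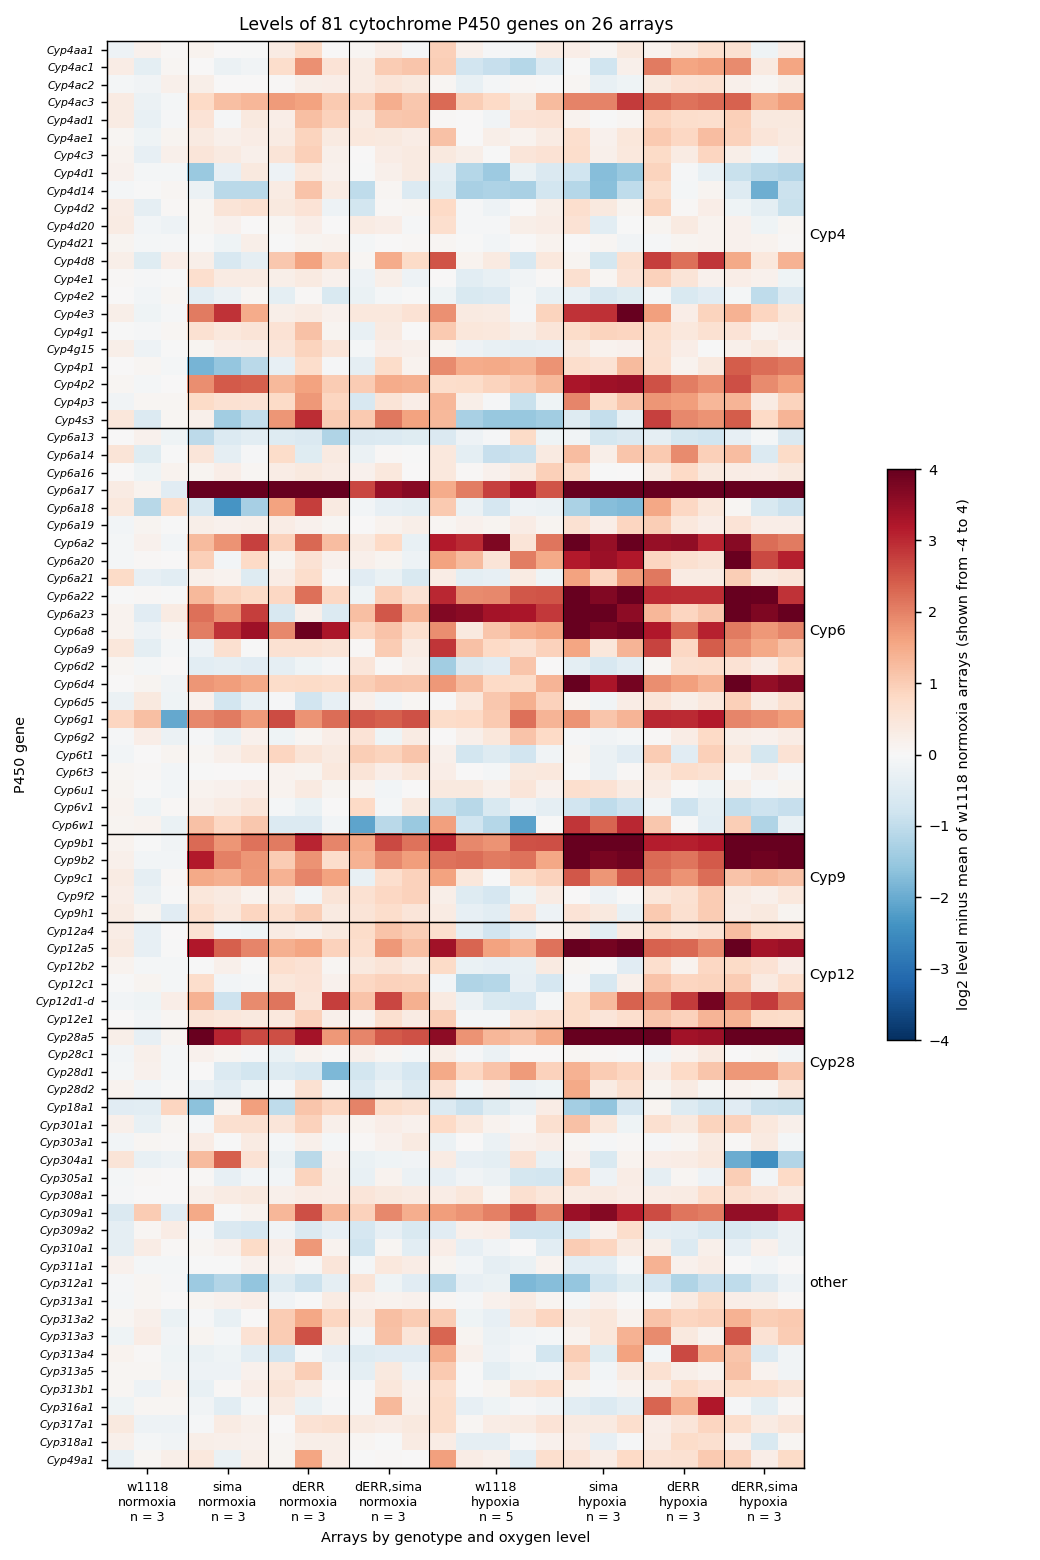
Level of the 81 P450 genes (rows, ordered by family) on the 26 arrays (columns, grouped by genotype and oxygen level). Colour is the log2 level minus the gene's mean in *w1118* in normoxia, with the colour scale ending at 4 in either direction. Most rows are pale in every group, and the rows that change are concentrated among Cyp6, Cyp9 and Cyp28 genes.

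In control larvae the Cyp6 family, the largest, had the most risers, 6 of 23 members (26.1%). The share was higher in the small families Cyp28 (50%) and Cyp9 (40%). *Cyp6a23* rose the most. Its level in *w1118* was 7.23, 6.65 and 7.41 on the 3 normoxic arrays and 10.79, 10.70, 10.42, 10.37 and 9.93 on the 5 hypoxic arrays, a change of 3.34 ± 0.38 (adjusted p = 3.63e-06) or 10.2-fold. All 5 hypoxic arrays lay above the 3 normoxic ones. *Cyp6a2*, a member known from insecticide-resistant strains, had levels of 3.79, 4.03 and 3.76 in normoxia and 7.02, 6.85, 7.58, 4.37 and 6.01 in hypoxia, a change of 2.50 ± 0.55 (adjusted p = 0.00321). Its hypoxic arrays spread widely, with replicate 3 the highest and replicate 4 the lowest, yet none of them reached down to a normoxic array. *Cyp6a17*, which has been tied to temperature preference in flies, went from 4.00, 3.82 and 3.21 to 5.16, 5.72, 6.42, 6.97 and 6.19, a change of 2.41 ± 0.32 (adjusted p = 2.48e-05). Every hypoxic array was again above every normoxic one. *Cyp6a22* went from 4.14, 4.20 and 4.13 to 7.17, 6.05, 6.08, 6.65 and 6.68, a change of 2.37 ± 0.32 (adjusted p = 3.24e-05). The other risers of the family were *Cyp6a20*, known for its effect on aggression in adult males, with 1.40 ± 0.29 (adjusted p = 0.00201), and *Cyp6d4*, with 1.19 ± 0.22 (adjusted p = 0.000867). Of the Cyp6 genes that did not pass, *Cyp6a8* changed by 1.29 ± 0.38 (adjusted p = 0.0268). *Cyp6g1*, the gene best known for DDT resistance, changed by 1.23 ± 0.47 (adjusted p = 0.0913), a value that rested on *w1118* normoxia replicate 3 and was 0.20 without it.

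*Cyp9b1* and *Cyp9b2*, a pair of close relatives, were the 2 of 5 Cyp9 genes that rose in *w1118*. *Cyp9b1* had levels of 4.53, 4.39 and 4.27 in normoxia and 7.45, 6.31, 6.20, 6.93 and 6.99 in hypoxia, a change of 2.37 ± 0.29 (adjusted p = 8.14e-06). *Cyp9b2* had levels of 9.52, 9.21 and 9.21 and 11.47, 11.55, 11.38, 11.49 and 10.85, a change of 2.03 ± 0.26 (adjusted p = 1.37e-05). In both genes the hypoxic arrays were clear of the normoxic ones, although replicate 5 was well below the other 4 for *Cyp9b2*. From the Cyp28 family, 2 of 4 genes rose: *Cyp28a5* by 1.88 ± 0.45 (adjusted p = 0.00661) and *Cyp28d1*, which has been linked to nicotine resistance, by 1.22 ± 0.27 (adjusted p = 0.0031). *Cyp12a5* was the 1 of 6 Cyp12 genes to rise. Its levels were 6.45, 5.75 and 6.08 in normoxia and 9.46, 8.41, 7.70, 7.47 and 8.26 in hypoxia, a change of 2.17 ± 0.38 (adjusted p = 0.00041), whereas its close relative *Cyp12a4*, known from lufenuron resistance, changed by -0.14 ± 0.26 (adjusted p = 0.74). *Cyp309a1* was the 1 riser of the 21 remaining genes, with 2.00 ± 0.38 (adjusted p = 0.000897).

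Of the 22 Cyp4 genes, 2 neighbours rose in *w1118*. *Cyp4p1* went from 8.65, 8.74 and 8.56 to 10.55, 10.12, 10.17, 10.06 and 10.46, a change of 1.62 ± 0.24 (adjusted p = 7.84e-05), and *Cyp4p2* from 3.45, 3.29 and 3.41 to 4.09, 4.11, 4.26, 4.43 and 4.68, a change of 0.93 ± 0.21 (adjusted p = 0.0038). The groups of arrays did not overlap for either gene, nor for any of the other 12 risers. The largest of the 14 rises was 10.2-fold (*Cyp6a23*) and the smallest 1.91-fold (*Cyp4p2*). By clan, 11 of the 37 members of the CYP3 clan rose, 2 of 32 in the CYP4 clan, 1 of 8 in the mitochondrial clan and 0 of 4 in the CYP2 clan. *Cyp6a17* and *Cyp6a23*, *Cyp9b1* and *Cyp9b2*, and *Cyp4p1* and *Cyp4p2* are similar in sequence, and signal from one member of such a pair may reach the probe set of the other, so their separate values are less certain than their common direction.

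**Figure D2:**
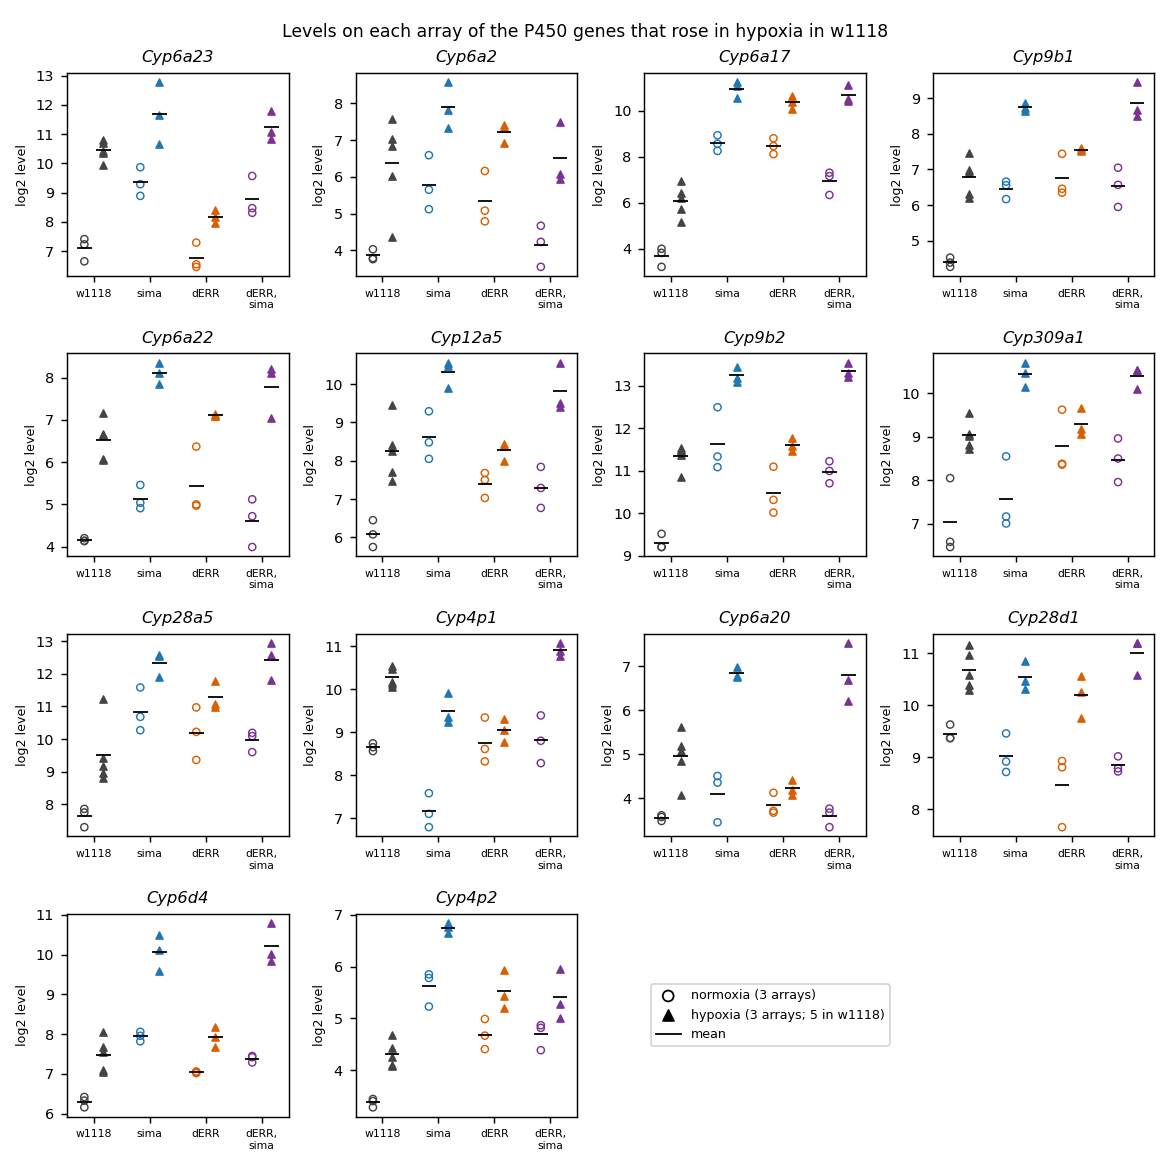
Log2 level of the 14 P450 genes that rose in hypoxia in *w1118*, with 1 point per array (open circles normoxia, filled triangles hypoxia) by genotype and a bar at the group mean. In *w1118* every hypoxic point lies above every normoxic point of the same gene, and the *dERR* groups show the smallest separation for most of these genes.

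Arrays within a group were uneven for the P450 genes. In *w1118* in hypoxia, replicate 1 had the highest level of the 5 arrays in 46 of the 81 members, with a median difference of 0.474 from the other 4, and replicates 4 and 5 stood apart in their summed testis marker signal (1307 and 1861, against 4156 to 9947 on the other 3). In groups of 3 arrays, the array that was highest in the most members was *dERR,sima* hypoxia replicate 1 (56 of 81, with a median difference of 0.349 from the other 2), *dERR* normoxia replicate 2 (52, with 0.424), *dERR,sima* normoxia replicate 2 (45, with 0.247), *sima* hypoxia replicate 1 (45, with 0.198) and *dERR* hypoxia replicate 1 (44, with 0.181), and all of these but *sima* hypoxia replicate 1 also had the highest summed muscle signal of their group (18981, 29057, 13768 and 19092). Without *w1118* hypoxia replicates 4 and 5, 13 members passed in place of 14. Over all probe sets, 585 were then higher and 326 lower, against 672 and 294 with all arrays. When each of the 26 arrays was left out in turn, 8 of the 14 calls held in every refit. The other calls were lost in some: that of *Cyp28a5* without *w1118* normoxia replicate 1 (2.00), 2 (1.71) or 3 (1.94) or *w1118* hypoxia replicate 2 (1.90), that of *Cyp28d1* without *w1118* normoxia replicate 1 (1.18) or 3 (1.18), that of *Cyp4p2* without *w1118* normoxia replicate 1 (0.96), 2 (0.88) or 3 (0.94) or *w1118* hypoxia replicate 5 (0.84), that of *Cyp6a2* without *w1118* normoxia replicate 1 (2.47), 2 (2.59) or 3 (2.45), that of *Cyp6a20* without *w1118* normoxia replicate 1 (1.36) or 3 (1.41), and that of *Cyp309a1* without *w1118* normoxia replicate 1 (1.71) or 3 (1.77). The count of risers was 8 without *w1118* normoxia replicate 1 or 3. The counts over all probe sets in refits without a single array are not given here. Member counts from such refits, here and below, therefore cannot be set against the whole array.

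In *sima* mutants most of the same genes rose, and 11 of the 12 that passed had also passed in *w1118* (78.6% of the 14 and 91.7% of the 12). *Cyp6a22* rose the most, from 5.46, 5.04 and 4.91 in normoxia to 8.36, 7.85 and 8.12 in hypoxia, a change of 2.97 ± 0.36 (adjusted p = 1.51e-05). *Cyp309a1* went from 8.55, 7.01 and 7.17 to 10.46, 10.70 and 10.14 (2.86 ± 0.42, adjusted p = 0.000136), and *Cyp6a20* from 4.51, 3.46 and 4.36 to 6.75, 6.98 and 6.77 (2.72 ± 0.32, adjusted p = 1.21e-05). For all 3 genes the hypoxic arrays were well clear of the normoxic ones. *Cyp6a17*, *Cyp6a23*, *Cyp6d4*, *Cyp9b1*, *Cyp9b2*, *Cyp4p1*, *Cyp4p2* and *Cyp28d1* also rose, with changes from 1.13 (*Cyp4p2*) to 2.38 (*Cyp6a17*). *Cyp28d2*, named here after its values were seen, rose in *sima* (1.10 ± 0.24, adjusted p = 0.00577) and had not passed in *w1118* (0.06 ± 0.22, adjusted p = 0.887). The 3 genes that passed in *w1118* and not in *sima* were *Cyp6a2* with 2.12 ± 0.61 (adjusted p = 0.033) in *sima*, *Cyp12a5* with 1.70 ± 0.42 (adjusted p = 0.0127) and *Cyp28a5* with 1.49 ± 0.50 (adjusted p = 0.0778). Their changes in *sima* were positive, and the interactions, the change in *sima* minus that in *w1118*, were -0.38 ± 0.82, -0.47 ± 0.56 and -0.40 ± 0.68. Calls were lost when single arrays were left out: that of *Cyp28d1* without *sima* normoxia replicate 2 (1.45) or 3 (1.35) or *sima* hypoxia replicate 1 (1.35), that of *Cyp28d2* without *sima* normoxia replicate 1 (1.12), 2 (1.02) or 3 (1.15) or *sima* hypoxia replicate 1 (0.75) or 3 (1.19), and that of *Cyp4p2* without *sima* normoxia replicate 1 (0.93) or *sima* hypoxia replicate 2 (1.13) or 3 (1.08). The other 10 *sima* calls held in every such refit.

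In *dERR* mutants the P450 response was smaller in number, as was that of the whole array, where 37 probe sets rose. The 3 members that rose were *Cyp316a1*, *Cyp6a17* and *Cyp28d1*. *Cyp316a1* was at 3.60, 3.01 and 3.23 in *dERR* in normoxia and 5.61, 4.70 and 6.46 in hypoxia, a change of 2.31 ± 0.35 (adjusted p = 0.00138). In the other 3 genotypes its levels stayed between 2.73 and 4.57 on every array, so the 3 hypoxic *dERR* arrays read above all others. Its mean level over all arrays was dim, higher than that of only 23.9% of all probe sets. *Cyp28d1* went from 8.93, 8.81 and 7.66 to 9.76, 10.25 and 10.56 (1.72 ± 0.30, adjusted p = 0.00377), and *Cyp6a17* from 8.47, 8.81 and 8.12 to 10.40, 10.65 and 10.08 (1.91 ± 0.36, adjusted p = 0.00789). Neither gene had overlapping groups. *Cyp28d1* and *Cyp6a17* were the only 2 of the 81 members that passed as higher in all 4 genotypes.

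Many of the genes that rose in *w1118* had positive changes in *dERR* mutants that did not pass. *Cyp6a22* was at 4.97, 6.37 and 5.0 in normoxia and 7.14, 7.10 and 7.10 in hypoxia, a change of 1.67 ± 0.36 (adjusted p = 0.0171). *Cyp9b2* changed by 1.13 ± 0.29 (adjusted p = 0.0448), *Cyp6a2* by 1.88 ± 0.61 (adjusted p = 0.124) and *Cyp6a23* by 1.42 ± 0.42 (adjusted p = 0.0898). In each of these 4 genes the hypoxic arrays lay above the normoxic arrays. The lowest values were those of *Cyp4p1* (0.29 ± 0.27, adjusted p = 0.701) and *Cyp6a20* (0.39 ± 0.32, adjusted p = 0.656). Over the 81 members, 62 had a positive change in *dERR*, compared with 51 in *w1118*, 51 in *sima* and 54 in the double mutants, and 33 were positive in all 4. The share of all probe sets with a positive change was not counted, so no excess among P450 genes can be read from these counts. All 3 *dERR* calls depended on single arrays: that of *Cyp28d1* without *dERR* normoxia replicate 3 (1.32) or *dERR* hypoxia replicate 2 (1.70) or 3 (1.54), that of *Cyp316a1* without *dERR* normoxia replicate 2 (2.18) or *dERR* hypoxia replicate 3 (1.88), and that of *Cyp6a17* without *dERR* normoxia replicate 1 (1.91), 2 (2.08) or 3 (1.73) or *dERR* hypoxia replicate 1 (1.90), 2 (1.77) or 3 (2.05), and without any 1 of 7 arrays of other groups (1.91, since only the estimated spread changes). The count of risers was 0 without *dERR* hypoxia replicate 3, and 1 without *dERR* normoxia replicate 3 or *dERR* hypoxia replicate 2.

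In the double mutants all 12 risers had also risen in *w1118* (85.7% of the 14). The changes were the largest of the 4 genotypes for several Cyp6 genes. *Cyp6a17* went from 6.34, 7.16 and 7.31 to 10.44, 11.13 and 10.53, a change of 3.76 ± 0.36 (adjusted p = 4.98e-07) or 13.6-fold. *Cyp6a20* went from 3.77, 3.68 and 3.35 to 7.53, 6.20 and 6.68 (3.20 ± 0.32, adjusted p = 9.25e-07), and *Cyp6d4* from 7.29, 7.45 and 7.42 to 10.80, 9.83 and 10.02 (2.83 ± 0.25, adjusted p = 1.38e-07). No hypoxic array reached a normoxic one in any of these genes. *Cyp6a22* (3.18), *Cyp12a5* (2.53), *Cyp28a5* (2.48), *Cyp6a23* (2.45), *Cyp9b2* (2.37), *Cyp9b1* (2.34), *Cyp28d1* (2.15), *Cyp4p1* (2.08) and *Cyp309a1* (1.92) made up the rest. *Cyp6a2*, with 2.36 ± 0.61 (adjusted p = 0.015), and *Cyp4p2*, with 0.72 ± 0.23 (adjusted p = 0.052), did not pass. Among the risers, calls were lost as follows: that of *Cyp28a5* without *dERR,sima* normoxia replicate 1 (2.30) or *dERR,sima* hypoxia replicate 1 (2.22) or 3 (2.42), and that of *Cyp309a1* without *dERR,sima* normoxia replicate 1 (1.66) or 3 (1.93) or *dERR,sima* hypoxia replicate 1 (1.85) or 2 (1.85).

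Falls were few. *Cyp6v1* and *Cyp304a1*, named here after their values were seen, were the 2 members that passed as lower in hypoxia in any genotype. *Cyp6v1* fell in *sima* from 7.04, 7.18 and 7.33 to 6.10, 5.84 and 6.03 (-1.20 ± 0.22, adjusted p = 0.00109) and in the double mutants from 7.65, 6.77 and 7.24 to 5.90, 6.01 and 5.93 (-1.27 ± 0.22, adjusted p = 0.000466). Its change in *w1118* was -0.64 ± 0.19 (adjusted p = 0.0332) and in *dERR* -0.33 ± 0.22 (adjusted p = 0.525). *Cyp304a1* fell in the double mutants from 7.15, 7.23 and 7.26 to 5.44, 4.96 and 6.23 (-1.67 ± 0.40, adjusted p = 0.0088), with -1.51 ± 0.40 (adjusted p = 0.0206) in *sima* and -0.02 ± 0.36 (adjusted p = 0.98) in *w1118*. In *dERR* it went from 7.18, 6.32 and 7.59 to 7.67, 7.71 and 7.82, a change of the opposite sign that did not pass (0.71 ± 0.40, adjusted p = 0.452). Both falls of *Cyp6v1* held whichever array was left out. The fall of *Cyp304a1* did not: it was lost without *dERR,sima* normoxia replicate 1 (-1.70), 2 (-1.67) or 3 (-1.65) or *dERR,sima* hypoxia replicate 1 (-1.62) or 2 (-1.38), and without any 1 of 12 arrays of other groups (-1.67, since only the estimated spread changes).

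**Figure D3:**
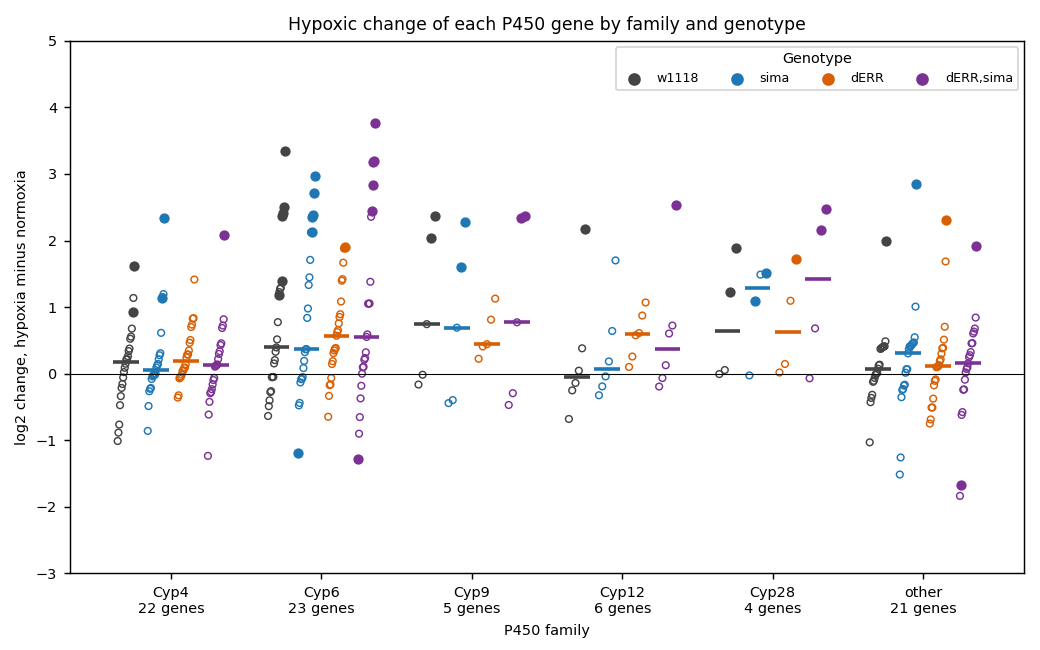
Log2 change in hypoxia of each P450 gene (points) by family (horizontal axis), with 1 colour for each of the 4 genotypes. Filled points passed the test, and the bar is the family median. The Cyp6, Cyp9 and Cyp28 columns hold most of the filled points above 0, the Cyp4 medians lie between 0.05 and 0.19, and *dERR* has 3 filled points.

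By family, the Cyp28 median was 0.64 in *w1118*, 1.29 in *sima*, 0.62 in *dERR* and 1.42 in the double mutants, with *Cyp28c1* near 0 in all 4 (-0.01, -0.03, 0.15 and -0.07). The Cyp9 median was 0.74, 0.69, 0.44 and 0.77, and the Cyp6 median 0.39, 0.37, 0.57 and 0.55. The Cyp4 median was lower, at 0.18, 0.05, 0.19 and 0.12, against 0.06, 0.02, 0.01 and 0.00 for all probe sets. The Cyp12 median was -0.05 in *w1118* and 0.59 in *dERR*, where all 6 genes were positive and 0 passed. Families of 4 to 6 genes give medians that single genes can move, and the families were not tested against each other. The 4 hypoxia comparisons share no arrays, and across the 81 genes their changes were related to different degrees. Pearson's r was 0.938 (Spearman's rho 0.913) between *sima* and the double mutants, 0.801 (0.652) between *w1118* and the double mutants and 0.768 (0.624) between *w1118* and *sima*. The *dERR* changes had r of 0.558 (0.460) with *w1118*, 0.487 (0.397) with *sima* and 0.532 (0.485) with the double mutants. These are correlations across genes, which are not independent replicates, and close paralogs count more than once in them.

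Whether a P450 gene responded differently in a mutant was tested in limma as the interaction, the mutant's change minus the change in *w1118*. Passing members numbered 0 in each of the 3 interactions, which share the *w1118* arrays. Over all probe sets 0.314% passed for *sima*, 0.107% for *dERR* and 0.48% for the double mutants. At an unadjusted p under 0.05 there were 11, 13 and 11 of the 81 members in the same order. The share of all probe sets at that threshold was not counted, so no excess among P450 genes can be read from these numbers. The nearest to passing were *Cyp6d4* in the double mutants, with a response larger than in *w1118* by 1.65 ± 0.33 (adjusted p = 0.0125), *Cyp316a1* in *dERR* (2.30 ± 0.47, adjusted p = 0.0278) and *Cyp6a20* in the double mutants (1.80 ± 0.43, adjusted p = 0.0432). In *dERR* the interactions of *Cyp6a23* (-1.92 ± 0.57, adjusted p = 0.178), *Cyp9b1* (-1.56 ± 0.43, adjusted p = 0.135) and *Cyp4p1* (-1.34 ± 0.36, adjusted p = 0.124) were negative with 95% intervals of -3.10 to -0.74, -2.46 to -0.67 and -2.08 to -0.59. The lower number of P450 genes that passed in *dERR* is therefore not in itself a tested difference. For *Cyp6a17* the interaction was -0.04 ± 0.48 (adjusted p = 0.982) in *sima* and -0.51 ± 0.48 (adjusted p = 0.784) in *dERR*, with 95% intervals of -1.04 to 0.97 and -1.51 to 0.50.

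The P450 genes of the fly often lie side by side. With at most 20 kb between consecutive members, 28 of the 81 genes form 7 runs of at least 3 neighbours, and the longest run, of 9 genes, holds *Cyp6a22*, *Cyp6a17*, *Cyp6a23*, *Cyp6a19*, *Cyp6a9*, *Cyp6a20*, *Cyp6a21*, *Cyp6a8* and *Cyp317a1* in that order. In *w1118*, 4 of the 9 rose (*Cyp6a22*, *Cyp6a17*, *Cyp6a23* and *Cyp6a20*), and 8 of the 9 had a positive change, with a run median of 1.29. The medians of the run were 1.45 in *sima*, 0.57 in *dERR* and 1.05 in the double mutants, with 4, 1 and 4 members passing. Neighbours in the run had unequal changes. *Cyp6a19*, between risers, changed by 0.15 ± 0.13 in *w1118* and by 0.24 ± 0.15 in the double mutants, and *Cyp317a1* at the end of the run by 0.40 ± 0.18 and 0.16 ± 0.20. In *sima*, *Cyp6a19* went from 3.61, 3.56 and 3.59 to 3.98, 3.65 and 4.23. In *dERR* it went from 3.68, 3.55 and 3.46 to 4.35, 3.80 and 3.65, and it passed in neither. Its mean level was dim, higher than that of only 26.6% of all probe sets, where a change of the transcript may not be seen. *Cyp6a21* changed by -0.05 ± 0.35 (adjusted p = 0.939) in *w1118* and by 1.45 ± 0.39 (adjusted p = 0.0236) in *sima*. Of the other runs, that of *Cyp4p1*, *Cyp4p2* and *Cyp4p3* had 2 of 3 genes passing in *w1118* and in *sima*, and the other 5 runs had 0 in every hypoxia comparison.

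**Figure D4:**
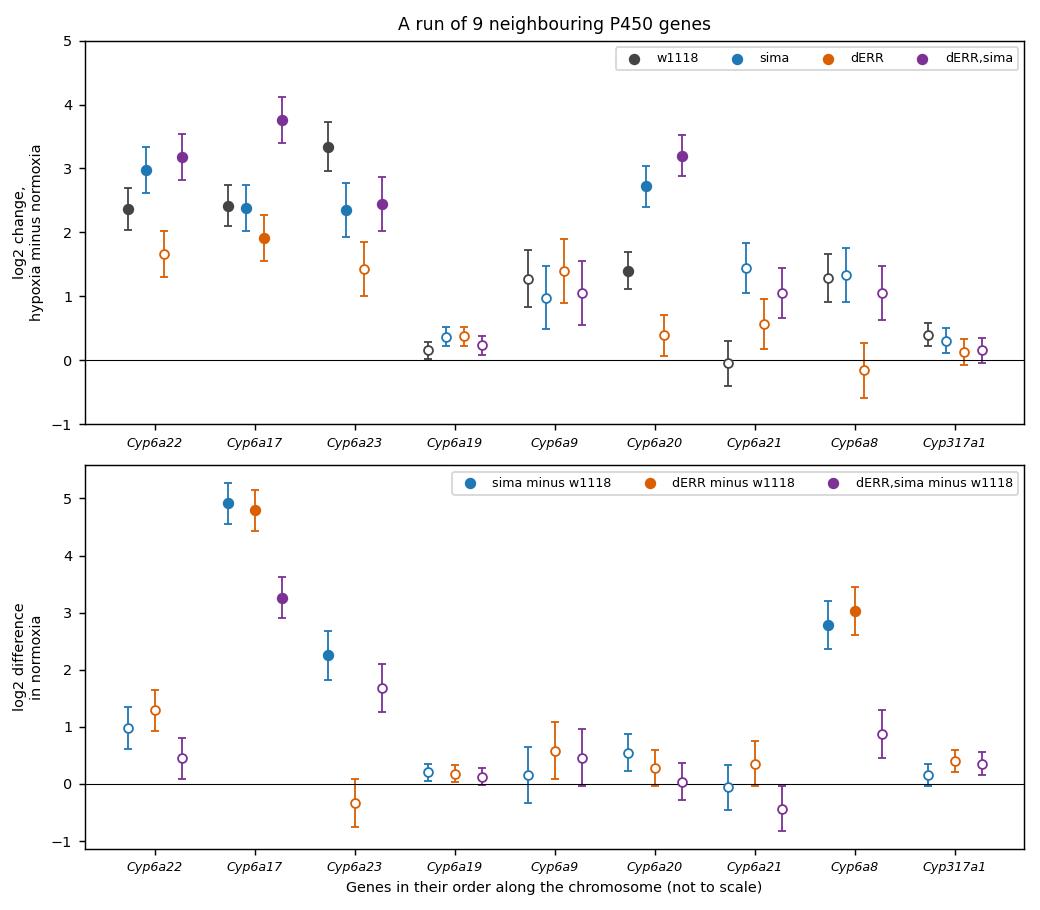
Log2 change of the 9 neighbouring genes, in their order on the chromosome, with SE. The upper panel shows hypoxia against normoxia in the 4 genotypes and the lower panel each mutant against *w1118* in normoxia, and filled points passed the test. *Cyp6a17* stands far above its neighbours in the lower panel, and *Cyp6a19*, a dim member, has no filled point in either.

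P450 levels already differed from *w1118* without H-treatment. In normoxia 11 members were higher and 1 lower in *sima* mutants, while 0.943% of all probe sets passed as higher and 0.522% as lower. In *dERR* mutants 6 were higher and 0 lower, against 1.48% and 0.805%, and in the double mutants 4 and 0, against 0.495% and 0.4%. The median difference of the 81 genes was 0.20, 0.35 and 0.23, and that of all probe sets was 0.07, 0.02 and 0.06. These 3 comparisons use the same 3 *w1118* arrays, so a low *w1118* reading would raise all 3 together.

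*Cyp6a17* had the largest difference in every mutant. Its normoxic levels were 4.00, 3.82 and 3.21 in *w1118*, 8.94, 8.57 and 8.26 in *sima*, 8.47, 8.81 and 8.12 in *dERR* and 6.34, 7.16 and 7.31 in the double mutants. The differences were 4.92 ± 0.36 (adjusted p = 1.9e-08), 4.79 ± 0.36 (adjusted p = 8.19e-08) and 3.26 ± 0.36 (adjusted p = 1.34e-05), that is 30.2-fold, 27.7-fold and 9.58-fold. Every normoxic array of *sima* and *dERR* was above every hypoxic array of *w1118* (5.16 to 6.97), and hypoxia raised the gene further in all 3 mutants. Whether a difference of this size between stocks follows the mutated genes or a variant of the stocks' background cannot be told apart here. *Cyp9b1* was at 4.53, 4.39 and 4.27 in *w1118*, 6.66, 6.17 and 6.56 in *sima*, 6.46, 7.44 and 6.35 in *dERR* and 5.95, 7.05 and 6.57 in the double mutants, with differences of 2.06 ± 0.32 (adjusted p = 0.000514), 2.35 ± 0.32 (adjusted p = 0.000175) and 2.12 ± 0.32 (adjusted p = 0.000499). *Cyp4p2* was higher by 2.23 ± 0.23 (adjusted p = 3.58e-06), 1.30 ± 0.23 (adjusted p = 0.00174) and 1.31 ± 0.23 (adjusted p = 0.0027). These 3 genes were the ones that passed in all 3 mutants, and in none of them did a mutant array overlap with *w1118*.

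*Cyp28a5*, *Cyp6a8* and *Cyp9c1* were higher in *sima* and in *dERR*. *Cyp6a8* had normoxic levels of 4.67, 4.33 and 4.60 in *w1118*, 6.58, 7.43 and 7.93 in *sima* and 6.44, 8.45 and 7.79 in *dERR*, with differences of 2.78 ± 0.42 (adjusted p = 0.000466) and 3.03 ± 0.42 (adjusted p = 0.000211). In the double mutants its difference was 0.88 ± 0.42 (adjusted p = 0.243). *Cyp28a5* differed by 3.21 ± 0.50 (adjusted p = 0.000524) in *sima*, 2.55 ± 0.50 (adjusted p = 0.00404) in *dERR* and 2.32 ± 0.50 (adjusted p = 0.0141) in the double mutants, the last a value of similar size that did not pass. *Cyp9b2* was higher in *sima* (2.33 ± 0.29, adjusted p = 4.47e-05) and in the double mutants (1.67 ± 0.29, adjusted p = 0.00209). Of the genes that passed in *sima* and in no other mutant, *Cyp12a5* (2.52 ± 0.42, adjusted p = 0.000957), *Cyp6a23* (2.25 ± 0.42, adjusted p = 0.00299), *Cyp6d4* (1.65 ± 0.25, adjusted p = 0.000454) and *Cyp4e3* (2.16 ± 0.43, adjusted p = 0.00559, named after its values were seen) were higher. Higher levels were not confined to *sima*. *Cyp12a5* was at 5.75 to 6.45 in *w1118*, 7.03 to 7.68 in *dERR* and 6.77 to 7.84 in the double mutants. *Cyp6d4* was at 6.16 to 6.42, 7.02 to 7.06 and 7.29 to 7.45 in the same order. The double mutant arrays were also above those of *w1118* for *Cyp6a23* and *Cyp4e3*, whereas the *dERR* arrays overlapped with *w1118* for both. *Cyp4p1* was the 1 member that was lower: its normoxic levels were 8.65, 8.74 and 8.56 in *w1118* and 6.79, 7.10 and 7.58 in *sima*, a difference of -1.49 ± 0.27 (adjusted p = 0.00198). It thus had the opposite sign from its neighbour *Cyp4p2* in *sima*, while both rose there in hypoxia. By clan, 8 of the 11 genes higher in *sima* belong to the CYP3 clan, as do 5 of 6 in *dERR* and 3 of 4 in the double mutants.

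**Figure D5:**
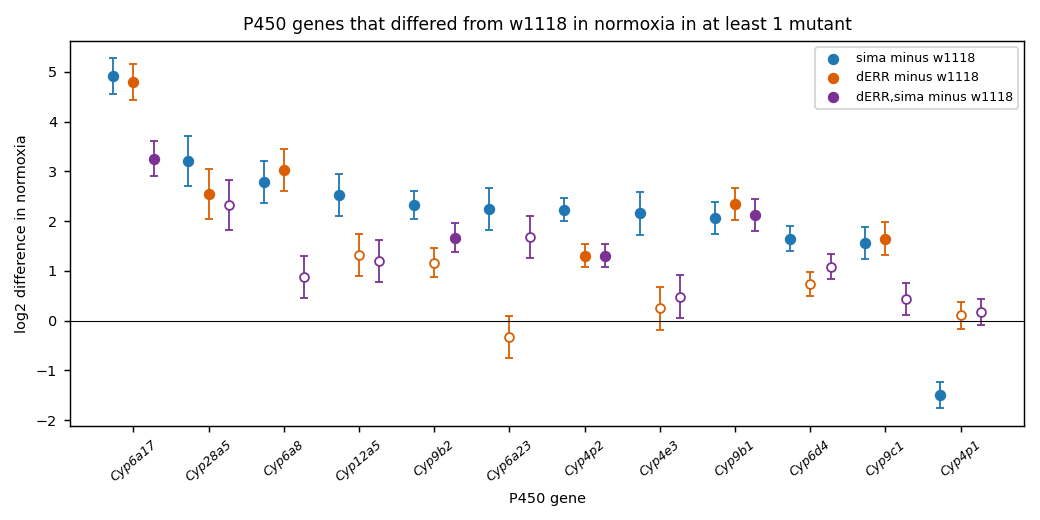
Difference from *w1118* in normoxia, in log2 units with SE, of the 12 P450 genes that passed in at least 1 mutant. Filled points passed the test. *Cyp6a17* is the highest in all 3 mutants, and *Cyp4p1* is below 0 in *sima* only.

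Leaving out single arrays removed some of these calls. In *sima*, they were that of *Cyp4e3* without *sima* normoxia replicate 1 (2.19) or 2 (1.80) or *w1118* normoxia replicate 1 (2.27), 2 (2.07) or 3 (2.14), that of *Cyp4p1* without *sima* normoxia replicate 1 (-1.31) or 2 (-1.47) or *w1118* normoxia replicate 2 (-1.45), that of *Cyp6a23* without *sima* normoxia replicate 1 (2.28) or 3 (1.99) or *w1118* normoxia replicate 1 (2.32) or 2 (2.03), and that of *Cyp9c1* without *sima* normoxia replicate 1 (1.59), 2 (1.62) or 3 (1.47) or *w1118* normoxia replicate 1 (1.72), 2 (1.38) or 3 (1.58), and without any 1 of 5 arrays of other groups (1.56, since only the estimated spread changes). In *dERR*, they were that of *Cyp28a5* without *dERR* normoxia replicate 1 (2.53) or 2 (2.15) or *w1118* normoxia replicate 1 (2.66), 2 (2.38) or 3 (2.60), that of *Cyp4p2* without *dERR* normoxia replicate 2 (1.15) or *w1118* normoxia replicate 2 (1.26), and that of *Cyp9c1* without *dERR* normoxia replicate 2 (1.5) or 3 (1.67) or *w1118* normoxia replicate 2 (1.47) or 3 (1.67), and the count was 3 without *dERR* normoxia replicate 2. In the double mutants, they were that of *Cyp4p2* without *dERR,sima* normoxia replicate 2 (1.22) or 3 (1.24) or *w1118* normoxia replicate 1 (1.34), 2 (1.26) or 3 (1.32), and that of *Cyp9b2* without *dERR,sima* normoxia replicate 2 (1.54) or 3 (1.66) or *w1118* normoxia replicate 2 (1.62) or 3 (1.62), and the count was 2 without *w1118* normoxia replicate 3 or *dERR,sima* normoxia replicate 2 or 3. *Cyp6a17* and *Cyp9b1* kept their calls in all 3 mutants whichever array was left out.

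Signals of whole tissues also differed between the normoxic groups, and many P450s are expressed in the midgut and Malpighian tubules. The summed intensity of 7 of 9 listed midgut protease genes was 36262 to 42286 in *w1118*, 48487 to 52781 in *sima*, 41858 to 52081 in *dERR* and 38193 to 50039 in the double mutants. For 3 of 5 tubule genes it was 222 to 252, 351 to 442, 271 to 366 and 252 to 376. The *sima* arrays were above all *w1118* arrays for both lists. In *w1118* in hypoxia the midgut sum was 30567 to 38543 and the tubule sum 223 to 329. The sums follow the brightest proteases, and single markers differed more: *thetaTry*, a midgut trypsin, was higher in *dERR* in normoxia (2.40 ± 0.49, adjusted p = 0.00495), with 0.48 ± 0.49 (adjusted p = 0.611) in *sima* and 1.68 ± 0.49 (adjusted p = 0.0709) in the double mutants. That call was lost when single arrays were left out, among them *w1118* normoxia replicate 1 (2.42), 2 (2.34) or 3 (2.44) and *dERR* normoxia replicate 2 (2.27) or 3 (2.19). The tubule channel gene *Irk3* differed by 1.08 ± 0.27 (adjusted p = 0.0273) in *sima* in normoxia and changed by 0.65 ± 0.24 (adjusted p = 0.0821) in *w1118* in hypoxia. The sum of 5 of 8 muscle genes was 4590 to 7179 in *w1118* and 16480 to 29057 in *dERR* in normoxia, and that of 9 testis genes was 7686 to 10185 in *w1118* against 2719 to 3896 in *sima*. The listed tubule markers *Uro* and *CapaR* had no probe set of their own here. The part of these differences in the P450 values was not tested.

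Of the well-studied members, several passed in no hypoxia comparison. *Cyp4g1*, the hydrocarbon-forming enzyme of oenocytes, changed in hypoxia by 0.53 ± 0.19 in *w1118*, 0.31 ± 0.21 in *sima*, -0.06 ± 0.21 in *dERR* and 0.30 ± 0.21 in the double mutants. Its group means ran from 9.76 ± 0.06 to 10.58 ± 0.09 (here ± SD between 3 arrays). Its relative *Cyp4g15*, expressed in the nervous system, had changes from -0.33 to 0.11. *Cyp18a1*, which degrades ecdysteroids, changed by -0.36 ± 0.56 (adjusted p = 0.688) in *w1118*, -1.26 ± 0.63 (adjusted p = 0.285) in *sima* and -1.84 ± 0.63 (adjusted p = 0.0709) in the double mutants, without passing in any. The neighbours *Cyp4e1* and *Cyp4e2*, the mitochondrial *Cyp49a1*, and *Cyp9f2* had changes between -0.47 and 0.63, and 0 of these 16 passed. *Cyp6g1* varied widely between arrays of *w1118*. Its levels were 9.21, 9.55 and 6.32 in normoxia and 9.08, 9.16, 9.41, 10.56 and 9.71 in hypoxia in *w1118*, and 10.84, 10.76 and 10.91 and 10.31, 10.22 and 10.03 in the double mutants. Its normoxic difference from *w1118* was 1.91 ± 0.52 (adjusted p = 0.0467) in *sima*, 2.21 ± 0.52 (adjusted p = 0.0138) in *dERR* and 2.48 ± 0.52 (adjusted p = 0.0116) in the double mutants, none of which passed. All 3 rested in part on *w1118* normoxia replicate 3, at 6.32, and without it they were 0.89, 1.19 and 1.46. *Cyp12d1-d*, an inducible member linked to DDT, changed by -0.25 ± 0.57 (adjusted p = 0.794) in *w1118* and 1.07 ± 0.64 (adjusted p = 0.476) in *dERR*.

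The enzymes that feed electrons to P450s also rose. Of 5 redox partners with a probe set (*dare*, the fly adrenodoxin reductase, had none of its own), 4 rose in *w1118*, namely *Cpr*, *Cyt-b5*, *Fdx1* and *Fdx2*, and 0 fell. The risers were 80% of this short list, against 3.58% of all probe sets. *Cpr* was at 9.04, 8.64 and 8.80 in normoxia and 10.90, 11.04, 11.00, 11.16 and 10.65 in hypoxia in *w1118*, a change of 2.12 ± 0.14 (adjusted p = 2.91e-09). The 5 hypoxic arrays were all higher than the 3 normoxic ones by more than 1 log2 unit. In *dERR* it was at 9.44, 9.71 and 9.09 and 10.05, 10.00 and 9.92 (0.58 ± 0.16, adjusted p = 0.0683), and in *sima* and the double mutants its changes were 2.30 ± 0.16 (adjusted p = 1.64e-08) and 2.47 ± 0.16 (adjusted p = 3.31e-09). The interaction for *dERR* passed, at -1.54 ± 0.22 (adjusted p = 0.00193), whereas those for *sima* and the double mutants were 0.17 ± 0.22 (adjusted p = 0.739) and 0.35 ± 0.22 (adjusted p = 0.423). *Cyt-b5*, the cytochrome b5 that passes electrons to some P450s, rose by 0.93 ± 0.14 in *w1118*, 1.28 ± 0.16 in *sima* and 1.40 ± 0.16 in the double mutants and changed by 0.36 ± 0.16 (adjusted p = 0.297) in *dERR*. The ferredoxins *Fdx1* and *Fdx2* rose in the same 3 genotypes, by 0.76, 1.39 and 1.54 for *Fdx1* and by 0.79, 0.74 and 1.37 for *Fdx2*, and neither passed in *dERR*. The probe set of *Cpr* was named through its listing in the study's supplementary gene table. *Cyt-b5-r*, a protein with a cytochrome b5 domain, rose in the double mutants and passed in no other genotype (2.84 ± 0.57, adjusted p = 0.00197), and the *Fdx1* interaction passed there (0.78 ± 0.14, adjusted p = 0.00379). Of these calls, some were lost when 1 array was left out: that of *Fdx2* without *sima* normoxia replicate 2 (0.75) or 3 (0.63) or *sima* hypoxia replicate 1 (0.59) or 3 (0.79) in *sima*, that of *Cyt-b5-r* without *dERR,sima* normoxia replicate 1 (2.58) or 3 (2.71) or *dERR,sima* hypoxia replicate 1 (2.57), and that of *Fdx1* without *dERR,sima* normoxia replicate 1 (0.75) or 3 (0.78) or *dERR,sima* hypoxia replicate 1 (0.70) or *w1118* normoxia replicate 2 (0.80) or 3 (0.73) for the interaction. In normoxia 2 of the 5 were higher than *w1118* in *sima* (40%), 0 in *dERR* and 1 in the double mutants (20%). Over all probe sets the shares were 0.943%, 1.48% and 0.495%. *Cpr* was higher in *sima* (1.03 ± 0.16, adjusted p = 0.000514), with 0.59 ± 0.16 (adjusted p = 0.028) in *dERR* and 0.46 ± 0.16 (adjusted p = 0.131) in the double mutants. *Fdx2* was higher in *sima* (0.89 ± 0.16, adjusted p = 0.00198) and in the double mutants (0.90 ± 0.16, adjusted p = 0.00272), with 0.64 ± 0.16 (adjusted p = 0.0182) in *dERR*. Both *Fdx2* calls depended on single arrays: it was lost without *sima* normoxia replicate 1 (0.80) or 2 (0.88) or *w1118* normoxia replicate 3 (0.84) in *sima*, and without *dERR,sima* normoxia replicate 1 (0.86) or 3 (0.89) or *w1118* normoxia replicate 1 (0.93), 2 (0.92) or 3 (0.84) in the double mutants.

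Heme is the cofactor of every P450. *Alas*, which catalyses the first step of heme synthesis, was at 8.48, 8.45 and 8.47 in normoxia and 10.48, 10.32, 10.57, 10.32 and 10.30 in hypoxia in *w1118* (1.93 ± 0.13, adjusted p = 3.77e-09), and at 8.98, 9.22 and 8.67 and 9.43, 9.27 and 9.35 in *dERR* (0.39 ± 0.15, adjusted p = 0.212). It rose by 2.34 ± 0.15 (adjusted p = 9.64e-09) in *sima* and 2.47 ± 0.15 (adjusted p = 1.47e-09) in the double mutants. In normoxia it was higher than *w1118* in *sima* (0.81 ± 0.15, adjusted p = 0.00265), a call that was lost without *sima* normoxia replicate 1 (0.81) or 3 (0.73) or *w1118* normoxia replicate 1 (0.82), 2 (0.80) or 3 (0.81). Like *Cpr*, it passed in the *dERR* interaction, at -1.54 ± 0.20 (adjusted p = 0.00113). *FeCh*, the ferrochelatase that inserts the iron, rose in *sima* (1.28 ± 0.11) and the double mutants (1.48 ± 0.11), and its change in *w1118* stayed under 1.5-fold (0.53 ± 0.10, adjusted p = 0.000876). *Coprox*, coproporphyrinogen oxidase, which uses oxygen, rose in *w1118* (0.64 ± 0.09) and *dERR* (0.81 ± 0.10) and changed by -0.13 ± 0.10 and -0.05 ± 0.10 in *sima* and the double mutants. Its interactions passed for *sima* (-0.78 ± 0.13, adjusted p = 0.00412) and for the double mutants (-0.69 ± 0.13, adjusted p = 0.00873), but both depended on single arrays. The calls were lost as follows: in *sima* without *sima* normoxia replicate 2 (-0.73) or 3 (-0.79) or *sima* hypoxia replicate 1 (-0.74) or 2 (-0.71) or *w1118* normoxia replicate 1 (-0.79), 2 (-0.75) or 3 (-0.79), and in the double mutants without *dERR,sima* normoxia replicate 1 (-0.72), 2 (-0.67) or 3 (-0.68) or *dERR,sima* hypoxia replicate 1 (-0.65) or 2 (-0.67) or *w1118* normoxia replicate 1 (-0.70), 2 (-0.66) or 3 (-0.70) or *w1118* hypoxia replicate 1 (-0.67), 2 (-0.70), 4 (-0.67) or 5 (-0.69), and without any 1 of 6 arrays of other groups (-0.69, since only the estimated spread changes). The *FeCh* interaction in the double mutants passed as well (0.95 ± 0.15, adjusted p = 0.00164). Of 7 listed heme genes with a probe set, *Pbgs*, *CG1885*, *Updo* and *Ppox* did not pass in hypoxia in any genotype.

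Of 8 regulators known to control P450 genes in insects (*cnc*, *Keap1*, *maf-S*, *Hr96*, *ss*, *tgo*, *Met* and *gce*), 2 rose in *w1118* (25%). Over all probe sets 3.58% did so. In *sima* and in the double mutants 1 rose (12.5%), against 1.85% and 2.78% of all probe sets. In *dERR* 0 rose, against 0.197%. *Hr96*, a nuclear receptor of the xenobiotic response, was at 7.18, 7.18 and 7.13 in normoxia and 7.67, 8.04, 7.87, 7.61 and 8.01 in hypoxia, a change of 0.68 ± 0.13 (adjusted p = 0.000961), and rose by 0.99 ± 0.14 in *sima* and 0.98 ± 0.14 in the double mutants, with 0.22 ± 0.14 (adjusted p = 0.533) in *dERR*. *Met*, a juvenile hormone receptor, rose in *w1118* (0.69 ± 0.12, adjusted p = 0.000434), and its change in *dERR* was -0.05 ± 0.13. For *cnc*, the fly Nrf2 that induces detoxification genes, the changes were 0.17, -0.04, 0.15 and 0.07 in *w1118*, *sima*, *dERR* and the double mutants. *Keap1*, which holds *cnc* in check, changed by -0.74 ± 0.23 (adjusted p = 0.0461) in *sima* and -0.63 ± 0.23 (adjusted p = 0.0881) in the double mutants. Transcript levels say nothing of the activity of these proteins.

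The ecdysteroid P450s, all 6 of which had a probe set, did not share the rise. In *w1118*, 0 rose and 1 fell (16.7%), with a median of -0.23. Over all probe sets 3.58% rose and 1.57% fell, with a median of 0.06. The gene that fell was *spok*, which acts early in ecdysone synthesis in the prothoracic gland: it was at 7.33, 6.73 and 6.55 in normoxia and 5.67, 5.58, 5.30, 5.89 and 5.15 in hypoxia, a change of -1.35 ± 0.33 (adjusted p = 0.0082). The hypoxic arrays were below the normoxic ones. This call was lost in 15 of the 26 refits that left out 1 array, among them those without *w1118* normoxia replicate 1 (-1.12), 2 (-1.42) or 3 (-1.51) or *w1118* hypoxia replicate 1 (-1.39), 2 (-1.37), 3 (-1.30) or 5 (-1.26), and without any 1 of 8 arrays of other groups (-1.35, since only the estimated spread changes). For *phm*, *dib*, *sad*, *shd* and *spo* the changes in *w1118* lay between -0.45 and 0.09, and 0 of the 6 genes passed in *sima*, *dERR* or the double mutants. On all arrays *spo* read 2.46 to 2.88 and *dib* 4.09 to 5.31. Both lie under the median level of all probe sets, where a change of the transcript may not be seen.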

How the data were processed

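The platform is the Affymetrix Drosophila Genome 2.0 array, where each transcript is read by a set of short probes and genes alike in sequence may share one. Per the labels the authors processed the scans with RMA (background correction, quantile normalization and summary by probe set). The deposited intensities are linear, from 3.95 to 23239.92, with array medians from 35.4 to 45.4. No version of RMA is given in the sources used here, nor is it stated that the 26 arrays went through 1 run. Of 18952 probe sets, 183 controls were left out and log2 was taken of the rest. Genes were named from the platform annotation, in which 13647 of the tested probe sets have 1 gene, 402 several and 4720 none.

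Group means of 8 groups were fitted with limma 3.58.1 (R 4.3.3), with Benjamini-Hochberg adjustment over 18769 probe sets. Replicates are separate biological samples by their titles. Calls needed an adjusted p under 0.01 and at least 1.5-fold, and 95% intervals use the moderated spread. Python 3.11.15, pandas 2.3.3, SciPy 1.17.1 and matplotlib 3.10.9 made summaries and plots. The script was tested on simulated data, where 79% of 2-fold and 91% of 4-fold changes of the *w1118* hypoxia comparison were recovered with 0 false calls, and 73% and 89% in *dERR* with 1. For the interactions of *sima*, *dERR* and the double mutants, 51%, 46% and 46% of 2-fold changes were recovered, and 81%, 81% and 80% of 4-fold changes. The simulated noise was normal with the same spread in every group, whereas the measured groups differed in spread, so recovery in the data may differ. Of the dim members, 30 of 81 lie under the median level of all probe sets, and all 81 were tested.

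Members named by rule, 27 in all, are those called in *w1118* in hypoxia, up to 6 called members with the largest change in every other comparison, members called in an interaction, and a list of well-studied genes. The text names further members outside this rule. The members, lists and rules were chosen with earlier results of these data known. Listed genes without a probe set of their own (*dare* and *Ho* among them) were not analysed here. Alternatives were SAM (the test of the study's methods), an adjusted p of 0.05, array centring, array weights, only the compared groups in the fit, dim probe sets left out, a gene's probe sets averaged, a replicate block, *w1118* hypoxia replicates 4 and 5 left out, and each array left out in turn.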

Additional observations from a re-analysis of the deposited data

Results flagged for a closer look

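A test for far arrays used Dixon's ratio, the gap to the nearest array over the range, above 0.71 for 5 arrays. Only the *w1118* hypoxic group was large enough for it. Of the 27 P450 genes named by the rule given above, the only ones tested, 3 had a single array far from the rest. Chance alone would flag about 1 in 20 of such groups. *Cyp28a5* was at 11.22 in replicate 1 and at 8.81 to 9.43 in the other 4 arrays (ratio 0.744). *Cyp316a1* was at 4.00 in replicate 1, against 2.94 to 3.23 (ratio 0.728). *Cyp9b2* was at 10.85 in replicate 5, against 11.38 to 11.55 (ratio 0.759). Members outside the 27 were not tested. Among them, *Cyp4s3* was at 7.41 in replicate 1, against 4.58 to 4.80, and *Cyp6a9* at 7.54, against 5.30 to 5.85. Replicate 1 was also the array with the highest level of 46 of the 81 members and had the highest summed muscle signal of the group (12937, against 3837 to 5064). Without replicate 1 the hypoxic change of *Cyp28a5* was 1.46, and without replicate 5 that of *Cyp9b2* was 2.16, and both still passed.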

How the results depend on the processing

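With only the arrays of the compared groups in the fit, which leaves fewer arrays to estimate the spread, the members that passed in hypoxia numbered 7 in *w1118* (14 with all groups), 0 in *dERR* (3) and 6 in the double mutants (14), and in normoxia 1 in *dERR* (6) and 7 in the double mutants (4). Over all probe sets, 398 were higher and 133 lower in *w1118* in hypoxia (672 and 294 with all groups). In the double mutants they were 165 and 48 (522 and 364). In *dERR* they were 0 and 0 (37 and 36), so the count of 0 members there is that of the whole array. In normoxia they were 42 and 26 in *dERR* (278 and 151) and 60 and 48 in the double mutants (93 and 75). SAM gave 1 in *dERR* in hypoxia, and in normoxia 2 in *dERR* and 18 in the double mutants. The counts of SAM over all probe sets are not given here, so its member counts cannot be set against the whole array. At an adjusted p under 0.05 there were 5 in *dERR* in hypoxia, 15 in *dERR* and 8 in the double mutants in normoxia, and 1 in the *dERR* and 2 in the double mutant interaction (*Cyp316a1*, then *Cyp6a20* and *Cyp6d4*). Over all probe sets, 98 were then higher and 115 lower in *dERR* in hypoxia. In normoxia they were 784 and 488 in *dERR* and 215 and 158 in the double mutants. In the same 2 interactions they were 16 and 60, then 113 and 98. Array weights gave 21 in *sima*, 14 in *dERR* and 24 in the double mutants in normoxia, and 1, 1 and 2 in the interactions. Over all probe sets in normoxia, 624 were then higher and 1632 lower in *sima* (177 and 98 without weights). They were 623 and 373 in *dERR* (278 and 151) and 591 and 931 in the double mutants (93 and 75). In the interactions they were 67 and 142, 20 and 61, and 177 and 216. The iteration of the weights stopped before it converged. Array centring gave 1 in *dERR* in hypoxia, where 23 of all probe sets were higher and 3 lower. With dim probe sets left out, *Cyp6d4* was the 1 member that passed in the double mutant interaction. Of all 9385 probe sets kept, 55 passed there as higher and 44 as lower. The cause of these differences was not tested.

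Leaving out 1 array at a time gave 8 to 15 in *w1118*, 11 to 15 in *sima*, 0 to 3 in *dERR* and 11 to 15 in the double mutants in hypoxia. In normoxia it gave 8 to 12 in *sima*, 3 to 8 in *dERR* and 2 to 5 in the double mutants, and in the interactions 0 in *sima*, 0 to 1 in *dERR* and 0 to 1 in the double mutants. Without the counts over all probe sets in these refits, a shift of P450 genes and one of the whole array cannot be told apart. Of 66 calls of members, 42 held in every such refit and 24 were lost in some, with adjusted p from 0.0101 to 0.0626 where lost and 0 of 1716 refits with a reversed sign. Same-numbered normoxic and hypoxic arrays of a genotype had deviations from their group means that correlated at -0.53 to 0.27. Arrays of different genotypes were not compared in this way. With 3 to 5 arrays per group these values cannot settle whether a replicate number marks a shared collection. With a replicate block, 7 passed in the double mutants in normoxia (4 without it), and 62 of the 66 calls held. Over all probe sets, 115 were higher and 125 lower in that comparison with the block, against 93 and 75 without it. Without *w1118* hypoxia replicates 4 and 5, 63 held, with centring 62, with SAM 58 and with only the compared groups 36. Of the 56 calls of members that are not dim, 56 held with dim probe sets left out.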

Other observations

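Some members, picked out after their values were seen, had large differences that did not pass. *Cyp6w1* was at 6.38, 6.43 and 6.02 in *w1118* and 4.17, 5.21 and 4.79 in the double mutants in normoxia (-1.55 ± 0.64, adjusted p = 0.189), and its change in hypoxia was -0.49 ± 0.58 (adjusted p = 0.588) in *w1118* and 1.71 ± 0.64 (adjusted p = 0.122) in *sima*. The arrays of the normoxic groups did not overlap. *Cyp4s3* was at 6.56, 5.56 and 6.19 in *w1118* and 7.86, 9.05 and 7.13 in *dERR* in normoxia (1.91 ± 0.64, adjusted p = 0.063), with 1.59 ± 0.64 (adjusted p = 0.177) in the double mutants. *Cyp4ac3* had changes of like size in hypoxia in *w1118* (1.14 ± 0.31, adjusted p = 0.0169) and *sima* (1.15 ± 0.35, adjusted p = 0.0432), below the threshold in both. *Cyp28c1* and *Cyp4d21* hardly moved in any genotype: their hypoxic changes lay between -0.07 and 0.15, and both have levels under the median of all probe sets, where a change of the transcript may not be seen.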
